A study of Homo sapiens with 8 samples.

Results

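The mRNA levels of 9 ligands of the TNF superfamily (TNF, LTB, TNFSF4, CD70, TNFSF10, TNFSF13B, TNFSF14, TNFSF15 and FASLG) were set beside that of CD137L (TNFSF9) after DNA damage in cells with and without p53. These 10 genes, of 20296 genes named on the array, were chosen by name as ligands and matched by their transcript accession, and each is represented by its probe with the highest mean over all arrays. Cells of the line MCF10A p53+/+, a non-tumorigenic human mammary epithelial line, and MCF10A p53-/- cells, which lack p53, were harvested untreated (0 h) or at 12, 24 and 48 h from exposure to doxorubicin (adriamycin, ADR), a drug that causes DNA double-strand breaks. The labels give 0.5 µg/ml for 2 h, whereas the methods of the study give a higher concentration. RNA of each of the 8 samples was hybridized in a single colour to 1 Agilent SurePrint G3 array, which gives a single array per genotype and time and no replicate. How the p53-/- line was derived, and whether it is 1 clone, is not given in the sources used here.

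Ligands of the TNF superfamily are mostly made as membrane proteins that assemble into trimers, and several are also cleaved and released. CD137L, CD70 and TNFSF4 (OX40L) bind CD137, CD27 and OX40 on T cells and costimulate them, and are best known on antigen-presenting cells. TNFSF10 (TRAIL) and FASLG bind death receptors, whose genes include well-known p53 targets. TNFSF14 (LIGHT) and LTB act through the lymphotoxin beta receptor, TNFSF15 (TL1A) through DR3, and TNFSF13B (BAFF) is a survival factor of B cells.

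Levels are on a log2 scale relative to the 75th percentile of the processed signals of an array, so a level of 0 is the signal at that percentile, and a step of 1 is 2-fold. Levels of different probes were not compared, since probes differ in how well they bind. A spot was well above background by the scanner software's own mark, and a probe when most of its spots were. By this measure 4 of the 10 ligands (CD137L, CD70, TNFSF13B and TNFSF14) were measured on all 8 arrays, 4 (TNF, TNFSF4, TNFSF10 and TNFSF15) on some, and 2 (LTB and FASLG) on none. The technical SD of a level was taken from probes printed in 10 spots at a like signal.

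The array labelled p53+/+ 0 h read like the p53-/- arrays in some genes that separated the treated genotypes and not in others. CDH1, or E-cadherin, read −3.13 there, against −3.55 on the p53-/- 0 h array and 1.42 to 2.10 on treated p53+/+ arrays. PECAM1, an endothelial adhesion protein, read −2.39 there and −2.05, −2.22, −1.59 and −1.93 on the p53-/- arrays of 0, 12, 24 and 48 h, and was not well above background on any p53+/+ array after treatment. CDKN1A (p21), a p53 target that arrests the cell cycle, read −1.14 there, above the p53-/- 0 h array (−2.97) and below the treated p53-/- arrays (−0.96 to −0.48) and the treated p53+/+ arrays (2.54 to 2.70). MDM2, a p53 target that limits p53, read −1.66 there, against −1.33 at p53-/- 0 h and 1.29 to 1.76 in treated p53+/+ cells. The cause was not tested, and that array is named by its label throughout. The main comparison is therefore between treated p53+/+ and treated p53-/- arrays, and its differences do not use the 0 h arrays. The choice of probes does, since a probe was tested if it passed the background mark on any array. TNF passed on the array labelled p53+/+ 0 h alone. Changes in p53+/+ cells are given from both 0 h arrays. All 8 arrays lay on 1 slide with the genotypes in separate columns, and genotype and slide position cannot be told apart. The 75th percentile of the signal ranged from 661 to 1199, and split by genotype after treatment. It was 818, 816 and 661 at 12, 24 and 48 h in p53+/+ and 1118.5, 1141 and 1199 in p53-/- cells. The lowest level well above background was −4.77, −4.50 and −4.63 on the treated p53+/+ and −5.53, −5.58 and −5.70 on the treated p53-/- arrays. A dim probe could thus pass the mark more readily on a treated p53-/- array. On the p53+/+ 48 h array 0 of 10 spike-in transcripts were well above background, against 6 on each of the other arrays.

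In treated p53+/+ cells CD137L itself read 3.43, 3.67 and 3.60 at 12, 24 and 48 h. Its p53-/- arrays read 0.10, 1.69 and 1.55 at those times and −0.65 at 0 h, and the array labelled p53+/+ 0 h read −0.04. The treated genotypes did not overlap, and their mean levels differed by 2.45 (SE 0.43, adjusted p = 0.0130 by limma). In the limma fit the 3 treated times stand in for replicates, so this SE describes the spread over time and p-values measure only that spread, which is in part the response itself. In bulk RNA, more cells that express a gene and more RNA per cell cannot be told apart.

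**Figure D1:**
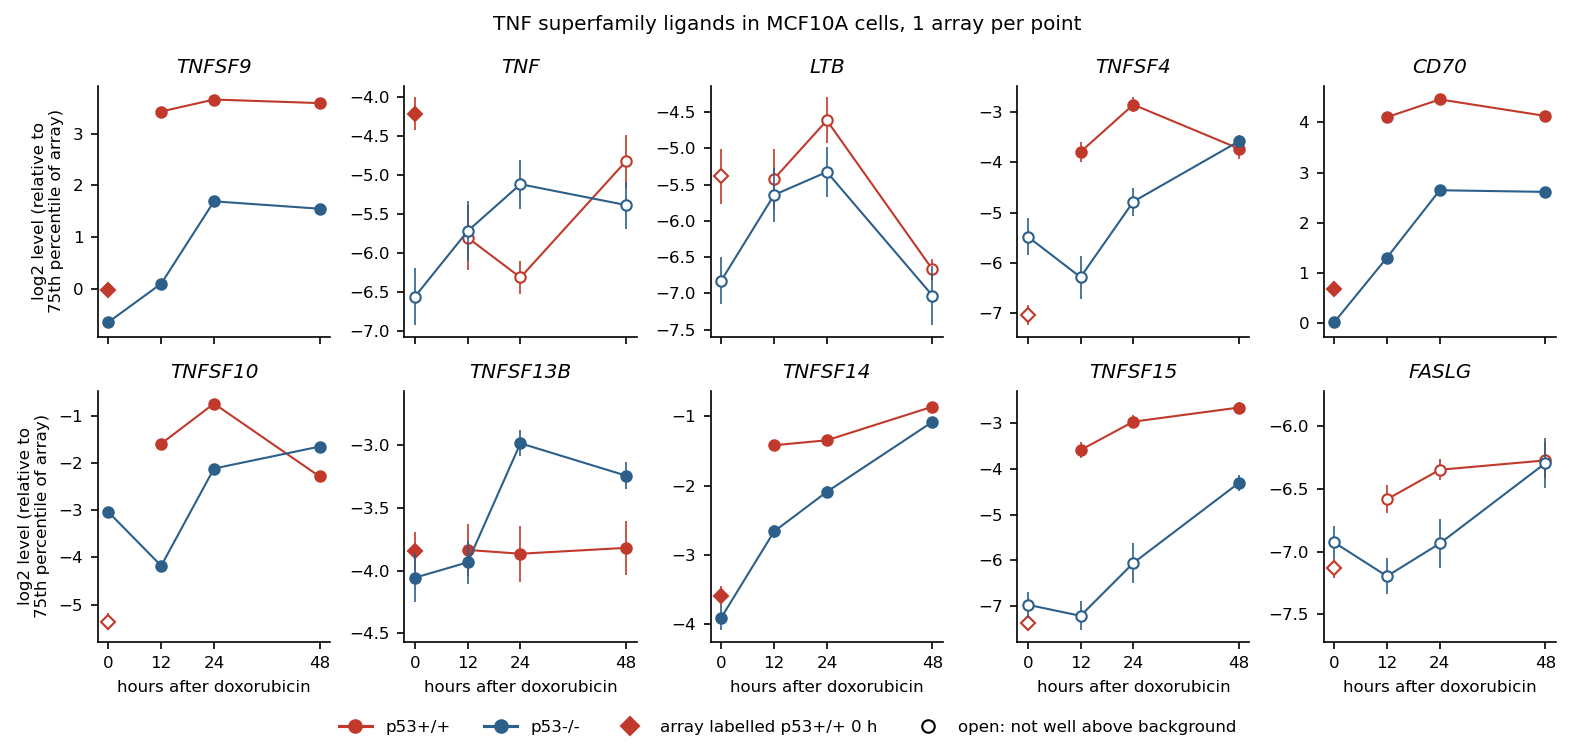
Levels of the 10 ligands on the 8 arrays, as log2 processed signal relative to the 75th percentile of the array (y axis), against hours after doxorubicin (x axis), with p53+/+ in red and p53-/- in blue and 1 array per point. Bars are the technical SD, diamonds the array labelled p53+/+ 0 h, and open symbols probes not well above background, as for LTB and FASLG on every array. In CD137L, CD70 and TNFSF15 each treated p53+/+ array lies above each treated p53-/- array, whereas TNFSF4 and TNFSF10 meet or cross at 48 h.

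Of the 9 other ligands, 2 were higher in treated p53+/+ than in treated p53-/- cells, CD70 and TNFSF15, and none was lower. In all 7 were tested, since LTB and FASLG were not well above background on any array. Of all 28947 probes tested, 10.6% were higher and 7.40% lower, so 2 of 7 was above the share of all probes, on a small number of genes. The size rule, at least 2-fold at each of 12, 24 and 48 h, named the same 2 ligands, against 6.29% of genes higher and 5.74% lower. The mean difference of the tested ligands had a median of 1.11, beside 0.09 over all probes. That median is the value of TNFSF10, which was not called. The values of TNF, TNFSF4 and TNFSF15 rest wholly or in part on levels below background.

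CD70, which costimulates T cells through CD27, had the level pattern nearest to that of CD137L among the ligands measured on all 8 arrays (r = 0.992). The 3 treated p53+/+ arrays, at 12, 24 and 48 h, read 4.10, 4.46 and 4.13, and their p53-/- counterparts 1.31, 2.65 and 2.62. The treated genotypes did not overlap, with the highest p53-/- array below the lowest p53+/+ array. The difference was 2.80, 1.81 and 1.51 at the 3 times (technical SD 0.06 to 0.07). Its mean was 2.04, or 4.11-fold (SE 0.39, adjusted p = 0.0167 by limma).

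TNFSF15 encodes TL1A, the ligand of DR3. It read −3.59, −2.97 and −2.67 in treated p53+/+ cells and −7.21, −6.05 and −4.31 in treated p53-/- cells. It passed the background mark on the 3 treated p53+/+ arrays and, of the p53-/- arrays, at 48 h alone, and was dim on both 0 h arrays. Where the p53-/- array was dim only a bound can be given, which was at least 3.82-fold higher in p53+/+ at 12 h and at least 6.07-fold at 24 h, and at 48 h the measured difference was 3.12-fold. The limma mean was 2.78 (SE 0.71, adjusted p = 0.0401), and rests in part on values below background.

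These calls depended on which times were kept. Without the 24 h arrays none of CD137L, CD70 and TNFSF15 passed the limma threshold (adjusted p = 0.116, 0.144 and 0.266), without the 48 h arrays CD137L and CD70 did not (0.0610 and 0.0625), and without the 12 h arrays TNFSF15 did not (0.0849), while the direction stayed. With no scaling of arrays, which moved the median of all probes from 0.09 to −0.51, TNFSF15 was not called (adjusted p = 0.0590) and none of the 9 ligands met the size rule. Of all probes called, 58.8% were higher in p53+/+ cells, and 45.7% with median scaling, 48.3% with quantile normalization, 73.3% with normexp background correction and 14.5% with no scaling.

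TNFSF4, or OX40L, and TNFSF10, or TRAIL, were higher in p53+/+ cells at 12 and 24 h and not at 48 h. TNFSF4 read −3.79, −2.85 and −3.73 in treated p53+/+ cells and −6.28, −4.78 and −3.58 in treated p53-/- cells, where it was well above background at 48 h alone. The p53+/+ arrays were at least 3.32-fold higher at 12 h and at least 3.80-fold at 24 h, and at 48 h the levels differed by −0.15 (technical SD 0.25). The groups overlapped, and the mean difference of 1.42, which rests in part on values below background, did not pass the test (SE 0.67, adjusted p = 0.188 by limma). It did with normexp background correction (adjusted p = 0.0322).

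TNFSF10 read −1.59, −0.74 and −2.28 in treated p53+/+ cells and −4.18, −2.11 and −1.65 in treated p53-/- cells. At 12 h it was 6.02-fold and at 24 h 2.60-fold higher in p53+/+ cells, and at 48 h the order turned, with a difference of −0.63 (technical SD 0.05). A second TNFSF10 probe gave differences of 3.26, 1.66 and −0.64. Both probes were read on the same single arrays, and the technical SD does not cover the spread between arrays. On the p53+/+ 48 h array 0 of 10 spike-in transcripts were well above background. The mean difference of the first probe was 1.11 (SE 0.71, adjusted p = 0.321 by limma).

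TNFSF14, or LIGHT, was closer in the 2 genotypes. Treated p53+/+ arrays read −1.42, −1.35 and −0.86 and treated p53-/- arrays −2.66, −2.09 and −1.08, and each p53+/+ array lay above the p53-/- array of the same time, although the groups overlapped. The difference of 1.24 at 12 h was 0.74 at 24 h and 0.22 at 48 h (technical SD 0.09 to 0.12), with a mean of 0.74 (SE 0.42, adjusted p = 0.263 by limma).

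TNFSF13B, or BAFF, read −3.83, −3.86 and −3.82 in treated p53+/+ cells and −3.93, −2.98 and −3.24 in treated p53-/- cells. Its treated p53+/+ levels were flat, and the p53-/- arrays of 24 and 48 h were above them. The mean difference was −0.45 (SE 0.27, adjusted p = 0.290 by limma), and was called lower with no scaling alone (−1.05, adjusted p = 0.0364). TNF passed the background mark on 1 array, that labelled p53+/+ 0 h (−4.21), and its treated levels, −6.31 to −4.82 in p53+/+ and −5.72 to −5.12 in p53-/- cells, gave no fold.

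**Figure D2:**
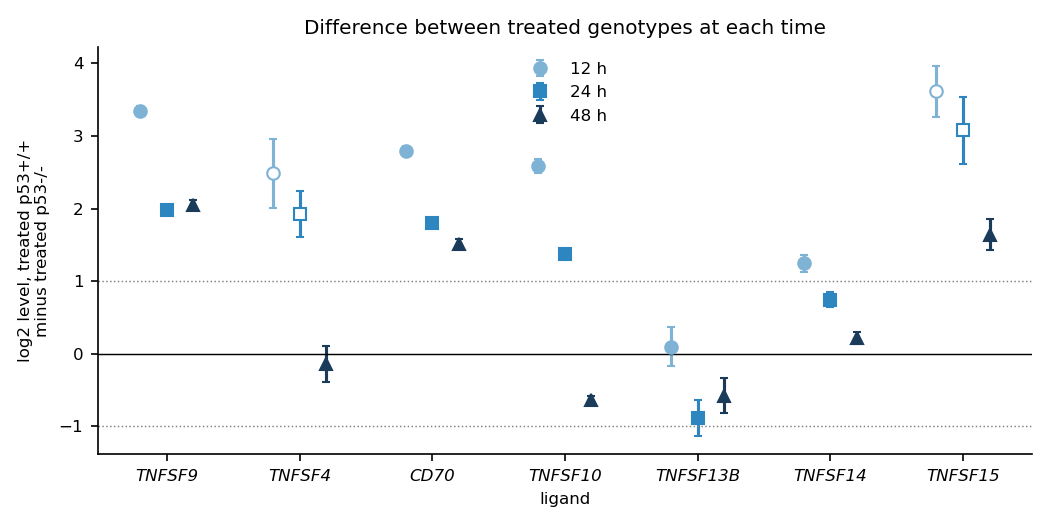
Log2 level in treated p53+/+ cells minus that in treated p53-/- cells (y axis) for CD137L and the 6 other ligands well above background on more than 1 array (x axis), at 12, 24 and 48 h. Bars are the technical SD, dotted lines mark 2-fold, and open symbols are differences in which the p53-/- array was not well above background. The difference of CD137L, CD70, TNFSF10 and TNFSF14, measured on all treated arrays, is largest at 12 h, at 3.34 in CD137L and 1.24 in TNFSF14, whereas that of TNFSF13B is closest to 0 at 12 h.

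In some ligands the gap between the genotypes was widest at the earliest time. Of the 3 ligands with a mean difference of at least 1 that were well above background on all 6 treated arrays (CD137L, CD70 and TNFSF10), 3 had their largest difference at 12 h, as did 333 of 1348 genes chosen in the same way (24.7%). This pattern was looked for after the values were seen, the 3 ligands share the same arrays, and it is given with no test. TNFSF4 and TNFSF15 have only bounds at 12 and 24 h, which set no order. In each of the 3 the p53-/- level was lowest at 12 h among treated arrays, while in p53+/+ cells CD137L and CD70 were already near their later levels.

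The question of whether a ligand differed from CD137L itself was tested in the same limma fit on the level minus that of CD137L on the same array, which no scaling changes. The difference between treated genotypes was smaller than that of CD137L in 4 of the 9 other ligands, by −1.34 in TNFSF10 (adjusted p = 0.0381), −1.72 in TNFSF14 (adjusted p = 0.00826) and −2.91 in TNFSF13B (adjusted p = 2.3e-05). The other one was TNF, whose treated values were all below background, so that its call says nothing of the size of its difference. Of all probes 91.3% were called smaller and 0.919% larger, 92.2% in all, so these 4 calls are what most probes give. All probes in this fit share the CD137L values, so pooling their spread (SE 0.64 for each) counts the same error many times, and its p-values can be too small. An ordinary fit with the spread of each probe alone and 4 residual degrees of freedom, added after seeing the data, was therefore set beside it.

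Without pooling, 4 of the 7 tested ligands, TNF again among them, and 22631 of 28946 probes passed. TNFSF14 (95% interval −2.83 to −0.61, adjusted p = 0.0291) and TNFSF13B (−3.60 to −2.22, adjusted p = 0.0203) still passed, and TNFSF10 did not (−2.81 to 0.13, adjusted p = 0.0740). CD70 was smaller by −0.42 and the fits disagreed on it, with an adjusted p of 0.0318 without pooling (SE 0.11, interval −0.71 to −0.12) and 0.523 with it. TNFSF4 was smaller by −1.03 (−2.42 to 0.36, adjusted p = 0.119 without pooling) and TNFSF15 larger by 0.33 (−1.37 to 2.02, adjusted p = 0.633 without pooling), and both intervals leave room for a difference of more than 2-fold, so they do not show that these ligands moved as CD137L did. At 12, 24 and 48 h the difference of CD70 was below that of CD137L by −0.54, −0.17 and −0.54 (technical SD 0.09 to 0.10). In the pooled limma fit without the 48 h arrays TNFSF10 and TNFSF14 no longer passed (adjusted p = 0.457 and 0.0659).

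After ADR, 2 of the 9 other ligands rose at least 2-fold at every time in p53-/- cells, CD70 and TNFSF14, against 2.59% of genes by the same rule, whereas CD137L did not, since its 12 h change was 0.75. CD70 changed from 0.02 at 0 h by 1.29, 2.63 and 2.60 at 12, 24 and 48 h, and TNFSF14 from −3.91 by 1.24, 1.82 and 2.82. CD137L changed by 0.75, 2.34 and 2.20. CD70 and CD137L were thus flat from 24 to 48 h, and TNFSF14 was higher at each later time. With 1 array at 0 h none of the 7 tested ligands passed the limma test (0 higher and 0 lower), where 0.00691% of all probes were higher and 0.0484% lower, 0.0553% in all. At an unadjusted p of 0.05, 2865 of all 28947 probes and 2 ligands did, CD70 (mean 2.17, SE 0.55, adjusted p = 0.297 by limma) and TNFSF14 (mean 1.96, SE 0.59, adjusted p = 0.363 by limma).

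The other ligands did not pass the test in p53-/- cells, and their values are given as a description. TNFSF10 was at −3.04 at 0 h and changed by −1.14 at 12 h, 0.92 at 24 h and 1.39 at 48 h, and its second probe by −1.25, 1.09 and 1.79. TNFSF13B changed by 0.12, 1.07 and 0.81 (technical SD 0.22 to 0.26). TNFSF4 was at least 3.16-fold higher at 48 h than at 0 h. TNFSF15, dim at 0 h (−6.97), was at least 1.91-fold higher at 48 h.

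In p53+/+ cells 5 of the 9 ligands, TNFSF4, CD70, TNFSF10, TNFSF14 and TNFSF15, were at least 2-fold above the array labelled p53+/+ 0 h at every time (8.21% of genes), and 4, without TNFSF10, above the p53-/- 0 h array (8.13% of genes). None was at least 2-fold lower at every time, as were 6.23% and 6.64% of genes. CD70 was 3.42, 3.77 and 3.44 above the array labelled p53+/+ 0 h and 4.08, 4.44 and 4.11 above the p53-/- 0 h array. CD137L was 3.47, 3.70 and 3.64 above the first and 4.09, 4.32 and 4.25 above the second. The p53+/+ change of both genes had reached its later size by 12 h.

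TNFSF14 was 2.17, 2.24 and 2.73 above the array labelled p53+/+ 0 h and 2.49, 2.56 and 3.04 above the p53-/- 0 h array. TNFSF15 was on average at least 4.23-fold above the first and at least 4.49-fold above the second, and TNFSF4 at least 3.25-fold and at least 3.44-fold. TNFSF10 depended on the array and the probe, at least 11.9-fold, 21.4-fold and 7.34-fold above the array labelled p53+/+ 0 h and 2.73-fold, 4.93-fold and 1.69-fold above the p53-/- 0 h array, where its second probe gave 6.30-fold, 10.4-fold and 3.45-fold, and 4.04-fold, 6.71-fold and 2.22-fold. TNFSF13B stayed within 0.24 of either array.

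By limma CD70 alone was called against the array labelled p53+/+ 0 h (3.54, SE 0.55, adjusted p = 0.0160), where 6.99% of all probes were, 4.18% higher. Against the p53-/- 0 h array CD70 (4.21, adjusted p = 0.00894) and TNFSF14 (2.70, adjusted p = 0.0435) were called, where 7.30% of all probes were, 4.65% higher. The change in p53+/+ cells did not differ from that in p53-/- cells past the limma interaction test in any of the 7 (0 called, 2 at an unadjusted p of 0.05, TNFSF10 and the mostly dim TNF, against 4949 of 28947 probes, and 1.69% of all probes called, 0.940% higher and 0.746% lower), and this test rests on the array labelled p53+/+ 0 h.

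**Figure D3:**
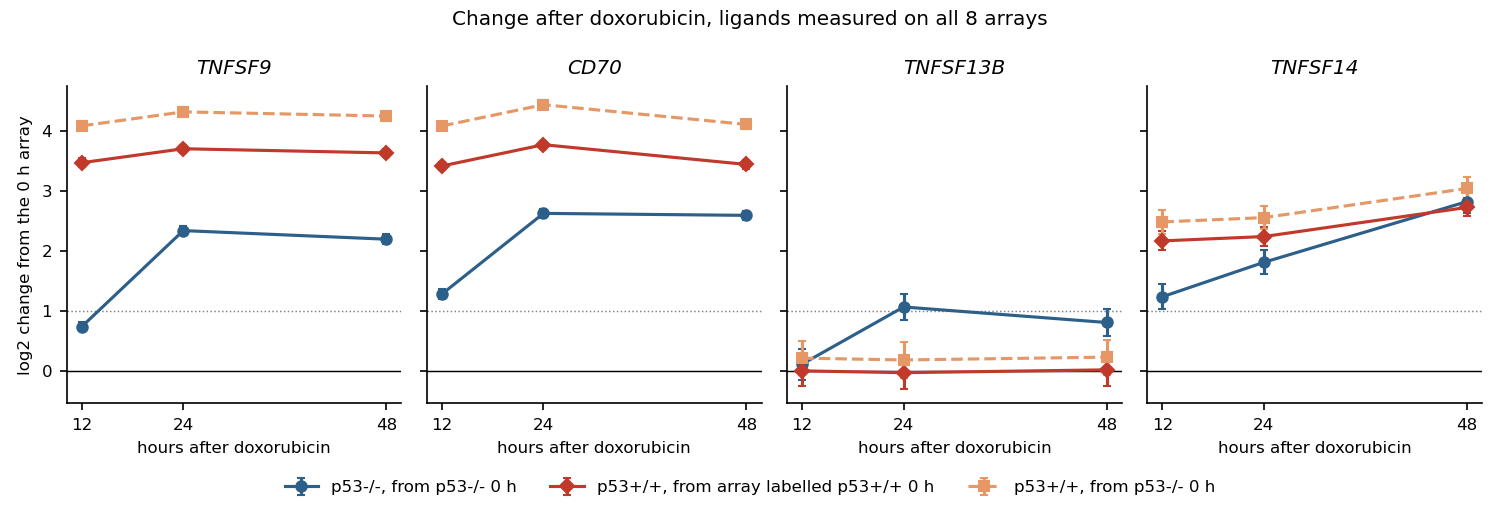
Log2 change from a 0 h array (y axis) at 12, 24 and 48 h after doxorubicin (x axis) for the 4 ligands measured on all 8 arrays, in p53-/- cells from their own 0 h array (blue), and in p53+/+ cells from the array labelled p53+/+ 0 h (red) and from the p53-/- 0 h array (orange). Bars are the technical SD and the dotted line marks 2-fold. CD70 and CD137L keep p53+/+ above p53-/- at each time, TNFSF14 reaches a like change in both genotypes at 48 h, and TNFSF13B passes 2-fold in p53-/- cells at 24 h alone.

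CD137L, CD70 and TNFSF14 are direct neighbours on chromosome 19, with no other protein-coding gene between them in the RefSeq table. Of their 6 nearest protein-coding neighbours, 3 on each side, CRB3 was higher in treated p53+/+ cells (3.54, adjusted p = 0.00470 by limma), TUBB4A (0.18), C3 (0.68), GPR108 (0.35) and TRIP10 (0.08) were not called, and DENND1C was not well above background on any array. The mean change in p53-/- cells was 1.76 in CD137L, 2.17 in CD70 and 1.96 in TNFSF14, and 1.80 in CRB3, 0.61 in TUBB4A, 0.32 in C3, −0.47 in GPR108 and −0.01 in TRIP10. The other ligands with a ligand beside them had partners that were not measured: FASLG and TNFSF18 lie beside TNFSF4 on chromosome 1, TNFSF8 beside TNFSF15 on chromosome 9, and LTA and LTB beside TNF on chromosome 6, and FASLG, TNFSF18, TNFSF8, LTA and LTB were not well above background on any array.

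**Figure D4:**
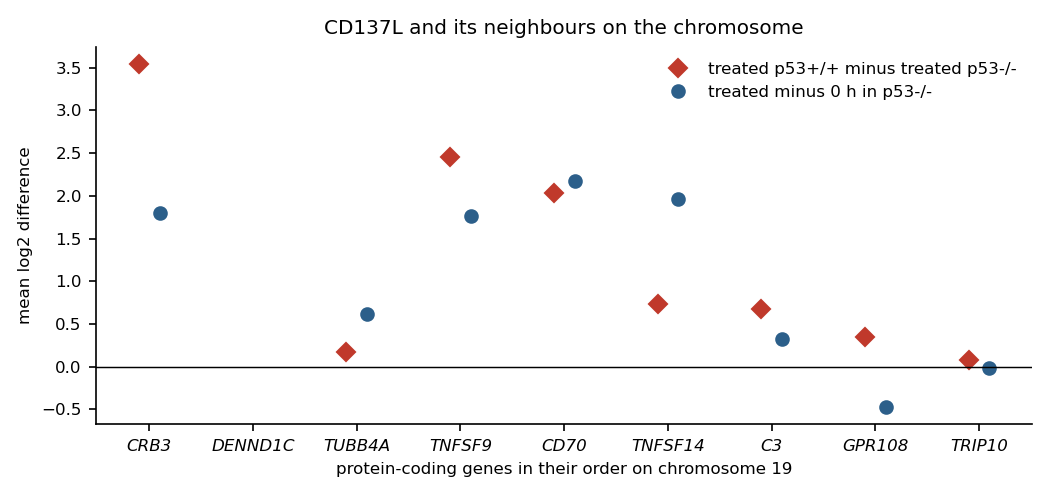
Mean log2 difference (y axis) of CD137L, CD70, TNFSF14 and 3 protein-coding genes on either side, in their order on chromosome 19 (x axis, order only). Red diamonds are treated p53+/+ minus treated p53-/-, blue circles treated minus 0 h in p53-/- cells, and DENND1C, not well above background on any array, has no point. The 3 ligands stand between 1.76 and 2.17 in p53-/- cells, while their genotype differences fall from 2.45 in CD137L to 0.74 in TNFSF14.

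The sequences just before the start sites were searched for short motifs. They are taken from RefSeq promoters of GRCh38.p14, which hold 9 of the 10 ligands (CD70 has no entry), as the 250 bases before the start. They are a description beside the mRNA levels, as these arrays measure no binding. In all 4 are shown, CD137L as the reference, TNFSF14 as its neighbour with a smaller difference, TNFSF15 as a called ligand and TNFSF10 as one whose order turned with time. They are CD137L at chr19:6530776-6531025 (plus strand), TNFSF14 at chr19:6670161-6670410 (minus strand), TNFSF15 at chr9:114792531-114792780 (minus strand) and TNFSF10 at chr3:172523431-172523680 (minus strand). Capitals mark matches to TATAAA, to TGANTCA, the AP-1 motif, to the p53 half-site and to an NF-kB site, each searched on both strands.
TNFSF9: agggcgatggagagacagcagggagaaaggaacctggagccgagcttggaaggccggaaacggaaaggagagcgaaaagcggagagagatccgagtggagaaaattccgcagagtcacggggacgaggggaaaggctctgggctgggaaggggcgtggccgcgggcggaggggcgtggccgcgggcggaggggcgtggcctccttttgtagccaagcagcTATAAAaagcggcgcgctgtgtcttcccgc
TNFSF14: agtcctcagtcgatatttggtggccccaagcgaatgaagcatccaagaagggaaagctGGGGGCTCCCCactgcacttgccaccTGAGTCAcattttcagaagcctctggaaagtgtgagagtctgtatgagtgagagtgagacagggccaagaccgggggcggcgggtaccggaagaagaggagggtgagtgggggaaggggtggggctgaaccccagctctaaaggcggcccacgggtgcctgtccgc
TNFSF15: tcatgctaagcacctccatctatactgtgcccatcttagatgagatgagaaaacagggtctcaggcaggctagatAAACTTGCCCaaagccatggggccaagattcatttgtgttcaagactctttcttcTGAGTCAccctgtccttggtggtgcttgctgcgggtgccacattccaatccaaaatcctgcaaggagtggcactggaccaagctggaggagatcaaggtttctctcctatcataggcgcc
TNFSF10: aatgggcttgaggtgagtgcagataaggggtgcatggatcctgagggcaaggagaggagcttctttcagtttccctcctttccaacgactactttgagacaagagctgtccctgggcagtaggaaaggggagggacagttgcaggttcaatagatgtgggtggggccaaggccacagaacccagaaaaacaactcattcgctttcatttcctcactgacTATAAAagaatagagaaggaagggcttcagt
In this window the p53 half-site was found in TNFSF15 alone, from −175 to −166 of the start. It was found in 5.57% of all 35116 promoters cut to the same length. For CD137L the study reports p53-binding sequences in its first intron or promoter region, which raised reporter activity and were bound by p53. The lack of a match in this short window thus does not mean that CD137L has no p53 site. TGANTCA was found in TNFSF14, from −166 to −160, and in TNFSF15, from −120 to −114, and in 6.57% of promoters. The NF-kB site was found in TNFSF14 (2 overlapping matches, from −192 and from −191) and in LTB, from −86 to −77, and in 9.96% of promoters. TATAAA was found in CD137L, TNF and TNFSF10, at −30, −29 and −31, and in 3763 promoters. TNFSF4, TNFSF13B and FASLG held none of the 4 motifs, which says only that these letters are not in this window.

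The receptors of these ligands were set beside them, with no test between the lists. Of 18 receptor genes of these ligands, 16 were tested, and 7 were higher and 1 lower in treated p53+/+ than in treated p53-/- cells. Of all probes 10.6% were higher and 7.40% lower, 18.0% in either direction. The counts include CD137 and TNFRSF10C, each well above background in a single genotype. CD137 (TNFRSF9), the receptor of CD137L, was the one that was lower. It was well above background on the 3 treated p53-/- arrays alone (−3.74, −4.22 and −4.23), and its treated p53-/- mean was at least 1.48-fold above treated p53+/+ cells (adjusted p = 0.00675 by limma, a test against values below background, which entered the fit only through the treated p53-/- arrays) and at least 2.26-fold above p53-/- 0 h. CD137L was higher in treated p53+/+ cells, but a receptor probe measured in treated p53-/- cells alone gives no sound test of an opposite order. CD137 also lost its call with normexp background correction. CD27, the receptor of CD70, was above background on 7 of 8 arrays (all levels −4.87 to −3.76) and was not called (0.38, adjusted p = 0.421 by limma).

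The death receptors of TNFSF10 and FASLG were higher, as was 1 of the TNFSF10 decoys. TNFRSF10B (DR5) and TNFRSF10A (DR4), the receptors of TNFSF10 that signal death, differed by 1.99 (adjusted p = 0.00143 by limma) and 1.98 (adjusted p = 0.00115 by limma), and FAS, the receptor of FASLG, by 2.42 (adjusted p = 8.7e-04 by limma), with its other probes at 2.39 and 2.35. TNFRSF10C, a decoy of TNFSF10, read 1.58, 2.07 and 2.01 in treated p53+/+ cells and was not well above background on any p53-/- array, at least 179-fold lower (adjusted p = 5.4e-05 by limma, also against values below background). TNFRSF10D and TNFRSF11B, other decoys of TNFSF10, were not called (−0.21 and −0.96), and TNFRSF11B was well above background on the 3 treated p53-/- arrays and on none of the treated p53+/+ arrays.

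TNFRSF14 (HVEM), which binds TNFSF14, read 0.86, 1.79 and 1.44 in treated p53+/+ cells and was measured on 1 treated p53-/- array, at 24 h (−5.08), where the genotypes differed by 6.87 (technical SD 0.32). Its mean difference of 6.78 (SE 0.34, adjusted p = 2.4e-04 by limma) rests in part on values below background. TNFRSF6B (DcR3), a secreted decoy that binds TNFSF14, TNFSF15 and FASLG, differed by 2.27 (adjusted p = 0.0174 by limma), although its transcripts overlap those read through from RTEL1 and the probe may not tell them apart. TNFRSF25 (DR3), the receptor of TNFSF15, differed by 0.93 (adjusted p = 0.0432 by limma), a call lost with median, quantile and no scaling. LTBR (0.33), which binds TNFSF14 and LTB, TNFRSF1A (0.17) and TNFRSF1B (0.40), the receptors of TNF, TNFRSF4 (0.77), that of TNFSF4, and TNFRSF13C (−0.40), that of TNFSF13B, were not called. The 2 receptor genes not tested, TNFRSF13B and TNFRSF17, also bind TNFSF13B. No called receptor changed sign under any scaling or with normexp.

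**Figure D5:**
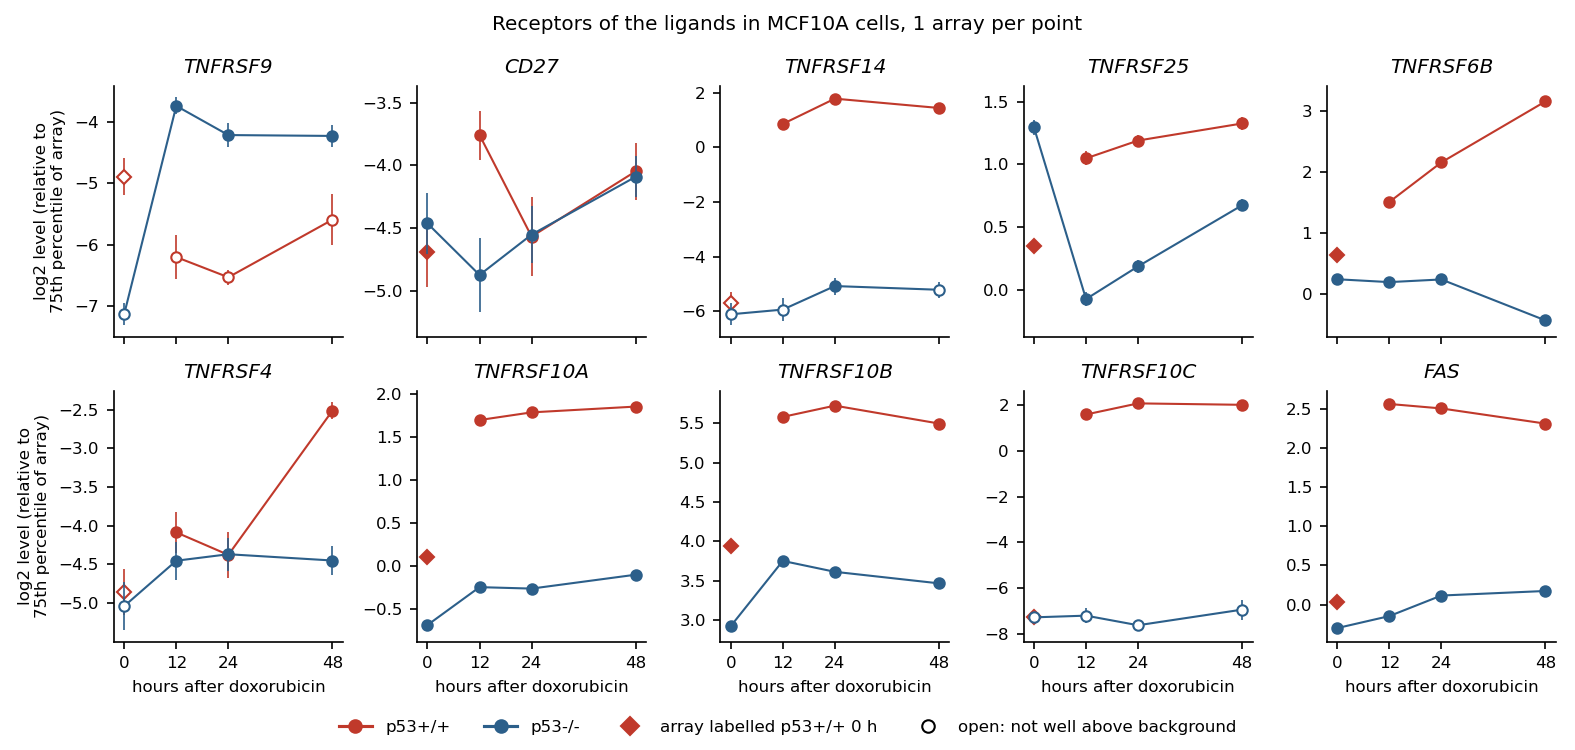
Levels of 10 receptors of the ligands on the 8 arrays, drawn as for the ligands, with log2 processed signal relative to the 75th percentile of the array (y axis) against hours after doxorubicin (x axis), p53+/+ in red and p53-/- in blue, technical SD as bars, and open symbols not well above background. TNFRSF9 (CD137) is well above background on the 3 treated p53-/- arrays alone, and TNFRSF14 and TNFRSF10C stand between 0.86 and 2.07 in treated p53+/+ cells and below −5 in p53-/- cells.

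Downstream of the receptors, 0 of 19 signalling genes were higher and 4 were lower in treated p53+/+ cells, beside 10.6% and 7.40% of all probes. TRAF1, an adaptor of TNF receptors, was below the background mark in all treated p53+/+ cells. It was at least 2.23-fold higher in treated p53-/- cells (adjusted p = 0.00349 by limma, also against values below background). RIPK1, the kinase of TNF receptor complexes, differed by −1.02, TRAF2, an adaptor, by −0.88, and BIRC2 (cIAP1), a ubiquitin ligase, by −0.85. TRAF1 and TNFRSF9 were both dim at p53-/- 0 h and measured at each treated p53-/- time, and TRAF1 was also measured on the array labelled p53+/+ 0 h (−3.31). Of 4 proteases that cleave such ligands, ADAM10 was higher (0.98, adjusted p = 0.0389 by limma, a call lost with median, quantile and no scaling), and ADAM17, FURIN and MMP7 were not called.

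Genes that followed a ligand over the 8 arrays were named by the highest Pearson r among genes well above background on all arrays. For CD137L these were EPCAM (r = 0.995), CDIP1 (0.992) and CD70 (0.992), and for CD70 EPCAM (0.994), VSNL1 (0.994) and IRX5 (0.992). For TNFSF14 they were HPS5, STX5 and BCDIN3D (0.985 to 0.981) and for TNFSF10 DNAAF19, LINC00467 and AKTIP (0.981 to 0.969). For TNFSF13B they were MELTF, MAN1B1-DT and CMC4 (0.954 to 0.924). Other probes of these genes did not always follow. A second CDIP1 probe, measured on all arrays, had genotype differences of 0.63, 0.69 and 0.82, against 4.92, 3.96 and 2.78. In p53-/- cells it changed by −0.12, −0.23 and −0.21, against 1.04, 2.52 and 3.09. A second MELTF probe, dim on both 0 h arrays, had genotype differences of 0.75, 0.30 and 0.46, against 0.22, −0.59 and −0.64. The 8 points share 2 genotypes and 1 time course, and 5.12% of candidate genes had r over 0.9 with CD137L, 1.67% with TNFSF14, 0.516% with TNFSF10 and 0.0676% with TNFSF13B. Among the ligands measured on at least 6 arrays r with CD137L was 0.992 in CD70, 0.883 in TNFSF14, 0.764 in TNFSF10 and 0.132 in TNFSF13B. In the dimmer ligands it was 0.947 in TNFSF15, 0.850 in TNFSF4, 0.276 in LTB and −0.027 in TNF. It was 0.792 in FASLG, which was below background on every array, so a high r alone says little.

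Markers of cell types moved with genotype as well. Of 10 mammary and squamous epithelial markers, 9 to 10 were well above background on each array, and 8 were higher in treated p53+/+ cells (10.6% of all probes), with a summed linear level of 484 to 512 against 219 to 243 in treated p53-/- cells. Among them EPCAM, a surface adhesion protein, differed by 2.81 and CDH1, or E-cadherin, by 3.98. Immune markers were mostly dim, at 2 to 4 of 6 T cell, 1 of 4 B cell, 0 of 4 NK cell and 2 to 3 of 4 myeloid markers well above background, and the T cell markers CD3G and CD2 on none. The summed level was 3.90 to 4.89 in treated p53+/+ and 3.33 to 3.67 in treated p53-/- cells for the T cell markers, 1.51 to 1.90 and 1.14 to 1.19 for the B cell markers, and 2.87 to 3.79 and 4.82 to 7.63 for the myeloid markers. These sums add probes of unequal binding and are led by few of them, CD4 (level 1.63 to 2.22 on treated arrays) for T cells and CD79A (0.13 to 0.88) for B cells. No T cell or B cell marker was called. ITGAM was higher (at least 8.50-fold) and CD14 lower (−1.07) in treated p53+/+ cells. The endothelial marker PECAM1 was lower (at least 6.58-fold) among 1 to 4 of 4 measured (summed level 0.18 to 0.23 against 0.36 to 0.51). ITGAM was measured on the treated p53+/+ arrays alone and entered the fit only through them, and PECAM1 was dim on those arrays. The calls of ITGAM and PECAM1 were thus tests against values below background. The part of these differences in those of the ligands was not tested.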

How the data were processed

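RNA of MCF10A p53+/+ and p53-/- cells was measured on 8 single-colour arrays. The authors deposited scanner output whose processed signal is an intensity on a linear scale, corrected for background by Agilent Feature Extraction 10.7.3.1, with a design on hg19, and a series table of the same linear intensities, equal in 503808 of 503808 values. No normalization between arrays is given in the sources used here.

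Control spots and spots marked uneven or outlying were left out (233 to 370 per array, 0 saturated). Per probe, log2 signal minus the log2 75th percentile of the array was averaged over spots. Accessions named 27227 of 42391 probes (64.2%) through RefSeq genes of GRCh38.p14, so only names, gene order and promoters come from it. Members and lists were chosen with earlier results of these data known. Named genes were the 10 ligands, each member's receptors, called genes of each list (at most 6) and the 3 genes with the highest r.

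The limma fit took the 28947 probes that passed the background mark on any array (4 groups: genotype, untreated or treated; 4 residual degrees of freedom; Benjamini-Hochberg adjusted p of 0.05). A 0 h array was assumed to vary like the treated ones. The size rule was 2-fold at each treated time with the brighter array well above background. Where 1 array was dim, the bound used the higher of its own value and the lowest level well above background on that array. Technical SDs came from the 100 probes nearest in level among 999 printed in 10 spots. The number of arrays limits precision. The fit was tested on simulated data. Alternatives were median, quantile and no scaling, normexp (offset 50), other filters, a signal floor, the mean of a gene's probes, each time left out, time as a block, and other size rules. The p53-/- 0 h baseline for limma counts and the unpooled fit of the difference from CD137L were added after seeing the data. Tools were limma 3.58.1 in R 4.3.3, and pandas 2.3.3, numpy 2.4.6, matplotlib 3.10.9 and scipy 1.17.1 in Python 3.11.15. A check of 1 gene is not reported here.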

Additional observations from a re-analysis of the deposited data

Results flagged for a closer look

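TNF values stood below the array labelled p53+/+ 0 h at each treated time (−1.59, −2.10 and −0.61) in p53+/+ cells and above the p53-/- 0 h array at each (0.84, 1.44 and 1.17) in p53-/- cells. All of them but the array labelled p53+/+ 0 h were below background, so these values give no measured change and no direction in p53-/- cells. The 2 mean changes differed by −2.58, which did not pass the limma interaction test (SE 0.80, adjusted p = 0.168). From the p53-/- 0 h array the mean change in p53+/+ cells was 0.91.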

How the results depend on the processing

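Between treated genotypes CD137L, CD70 and TNFSF15 kept their direction under all 10 alternatives and passed in 8, 8 and 7 of them. The number of other ligands called, 2, was 1 with probes well above background on all 8 arrays and 0 to 1 when a time was left out. Over all probes 5201 calls became 9393 with no scaling, 9894 with normexp, 12536 with no filter, 9478 with a floor and 292 to 2670 without a time. The 2-fold count of 2 became 0 with no scaling, 1 at 3-fold, 4 at 2 of 3 times, and 2 to 4 without a time, 4 without the 48 h arrays. From 0 h in p53-/- cells 16 calls became 8 with no scaling, 10 with quantile normalization, 51 with normexp, 42 on probes above background on all 8 arrays, 31 with a floor, 0 with time as a block and 0 to 0 without a time, and the 2-fold count of 2 became 1 with normexp and 0 at 3-fold. In p53+/+ cells 2023 calls became 732 with time as a block and 86 to 1862 without a time. The 1 other ligand became 2 with median scaling, quantile normalization, the stricter filter, a floor and the p53-/- 0 h baseline (added after seeing the data), 4 with normexp, 0 with the block and 0 to 4 without a time. The 2-fold count lower, 0, became 1 with no scaling and at 2 of 3 times, and 0 to 1 without a time. The 488 interaction calls became 1296 with no scaling, 1251 with normexp, 914 with a floor, 60 with the block and 0 to 42 without a time, with 1 other ligand, from 0, with no scaling. Ligands that differed from CD137L, 4, were 2 with the stricter filter, 2 to 4 without a time, and 4 without pooling, which gained CD70 and lost TNFSF10.

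Signs that turned were those of small or dim values: TNF between treated genotypes (0.35 with normexp, 0.71 with a floor, −0.64 to 0.24 without a time), in p53-/- cells (−0.047 with normexp, −0.10 with a floor) and in p53+/+ cells (0.91 from p53-/- 0 h). In p53-/- cells TNFSF4 (−0.055 to 1.29 without a time, −0.27 with the block) and TNFSF10 (−0.11 to 1.16 without a time, −0.40 with the block) turned. TNFSF13B in p53+/+ cells turned with median scaling (−0.15), no scaling (−0.41), quantile normalization (−0.16), without a time (−0.0052 to 0.018) and with the block (−0.27). TNFSF15 against CD137L turned with normexp (−0.96), a floor (−0.39) and without a time (−0.066 to 0.69). The cause was not tested. No paired analysis was possible because the labels carry no replicate numbers, other than by time, which is the block above. Without a time, 2 treated times a genotype remain and limma pools the spread. Ligands dim on an array have only a bound there.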

Other observations

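Of 8 further ligands of the superfamily, 4 were tested and none was called between treated genotypes by limma (0 higher, 0 lower). TNFSF12 (TWEAK), measured on all 8 arrays, read 0.13 at 0 h and −1.30, −2.85 and −3.04 at 12, 24 and 48 h in p53-/- cells, a mean change of −2.53 (SE 0.71, adjusted p = 0.344 by limma), while treated p53+/+ cells read −1.15, −1.54 and −0.60 and the array labelled p53+/+ 0 h −0.85. Its second probe, above background at p53-/- 0 h alone, gave a mean change of −1.15 in p53-/- cells. EDA, the ectodysplasin ligand, differed by 0.68 between treated genotypes on the probe used (adjusted p = 0.0761 by limma) and by 1.12 on another probe (adjusted p = 0.0395 by limma). TNFSF13 (APRIL) differed by −0.27. LTA, CD40LG, TNFSF8 and TNFSF18 were not well above background on any array, and TNFSF11 was at p53-/- 0 h alone.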
